A study of Homo sapiens with 8 samples.

Results

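The genes described are the ligands and receptors of axon guidance in CFPAC-1 cells, an established human pancreatic ductal adenocarcinoma line. They were taken by symbol from a table of 58870 genes, which holds 64 of them: 14 Eph receptors, 8 ephrins, 20 semaphorins, 9 plexins, 2 neuropilins, 3 SLIT and 4 ROBO genes, and 4 netrins. RNA sequencing had been done on 4 samples of CFPAC-1 with an empty vector and 4 samples of CFPAC-1 with an ADRA2A transgene, which encodes the alpha-2A adrenergic receptor. All 8 samples were grown for 72 h in IMDM with 10% FBS and 1% penicillin-streptomycin, with no drug added. The labels did not say what promoter drives the transgene, whether each line is a clone or a pool, or whether the 4 samples of a group were separate cultures, so p-values measure the spread between these samples, which may be technical. In RNA from whole cultures, fewer expressing cells and less RNA per cell cannot be told apart.

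Axon guidance proteins were named for steering growing nerve fibres, and the same proteins act between epithelial, endothelial and tumour cells. Eph receptors are tyrosine kinases whose ephrin ligands are held on the surface of the neighbouring cell, so that contact signals into both cells. Semaphorins are secreted or membrane-bound ligands of plexins, which act on small GTPases, and most class 3 semaphorins bind through a neuropilin. SLIT proteins bind ROBO receptors, and netrins bind DCC, neogenin and UNC5 receptors. In pancreatic ductal adenocarcinoma, SLIT-ROBO and semaphorin genes are among those reported to be altered in tumours.

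The transgene was examined first. ADRA2A had 0 counts in each of the 4 empty-vector libraries and 112, 142, 154 and 172 counts in the 4 ADRA2A libraries, at least 49.1-fold above the 3 counts that a count of 0 allows per library. Library totals lay between 14427035 and 17528915 counts. Duct epithelial markers were abundant, with a summed level of 11983 to 12556 counts-per-million (CPM) in the empty-vector libraries and 11929 to 12982 CPM in the ADRA2A libraries over 7 genes, of which 3 rose and 3 fell. The neuron markers RBFOX3 and STMN2 and the Schwann cell marker SOX10 had 0 counts in all 8 libraries. The 5 neuron markers summed to 70.6 to 82.9 CPM in the empty-vector and 48.0 to 56.3 CPM in the ADRA2A libraries, mostly TUBB3. The fibroblast list of 6 genes summed to at most 2.49 CPM and the endothelial list of 5 genes to at most 3.35 CPM in any library. CD3E was at 0 in all libraries, PTPRC had at most 4 counts in any, and the leukocyte list was carried by CD68.

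Of the 64 genes, 48 passed the filter on low counts. With edgeR's quasi-likelihood test, 18 rose and 14 fell in the ADRA2A cells (Benjamini-Hochberg adjustment over all genes, threshold 0.05), and 16 were not called. Among all 14785 genes tested 42.7% were called, 21.6% higher and 21.1% lower, against 66.7% of the 48 guidance genes. The median abundance of the guidance genes tested, 25.2 CPM, was close to the 24.6 CPM of all genes tested. Their median log2 fold change was 0.04, beside 0.00 over all genes, so the set as a whole was not displaced in 1 direction. The median absolute log2 fold change was 0.37, beside 0.18 over all genes. The 4 libraries of 1 group lay wholly above those of the other in 32 of the 48 genes, as they did in 39.2% of all genes tested. A log2 fold change of at least 1 in either direction was reached by 9 called genes, 4 higher (SEMA6A, EFNB1, EPHA10 and PLXND1) and 5 lower (EPHA3, ROBO1, EPHA7, SEMA7A and NTN1), where 4.66% of all genes tested did so.

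**Figure D1:**
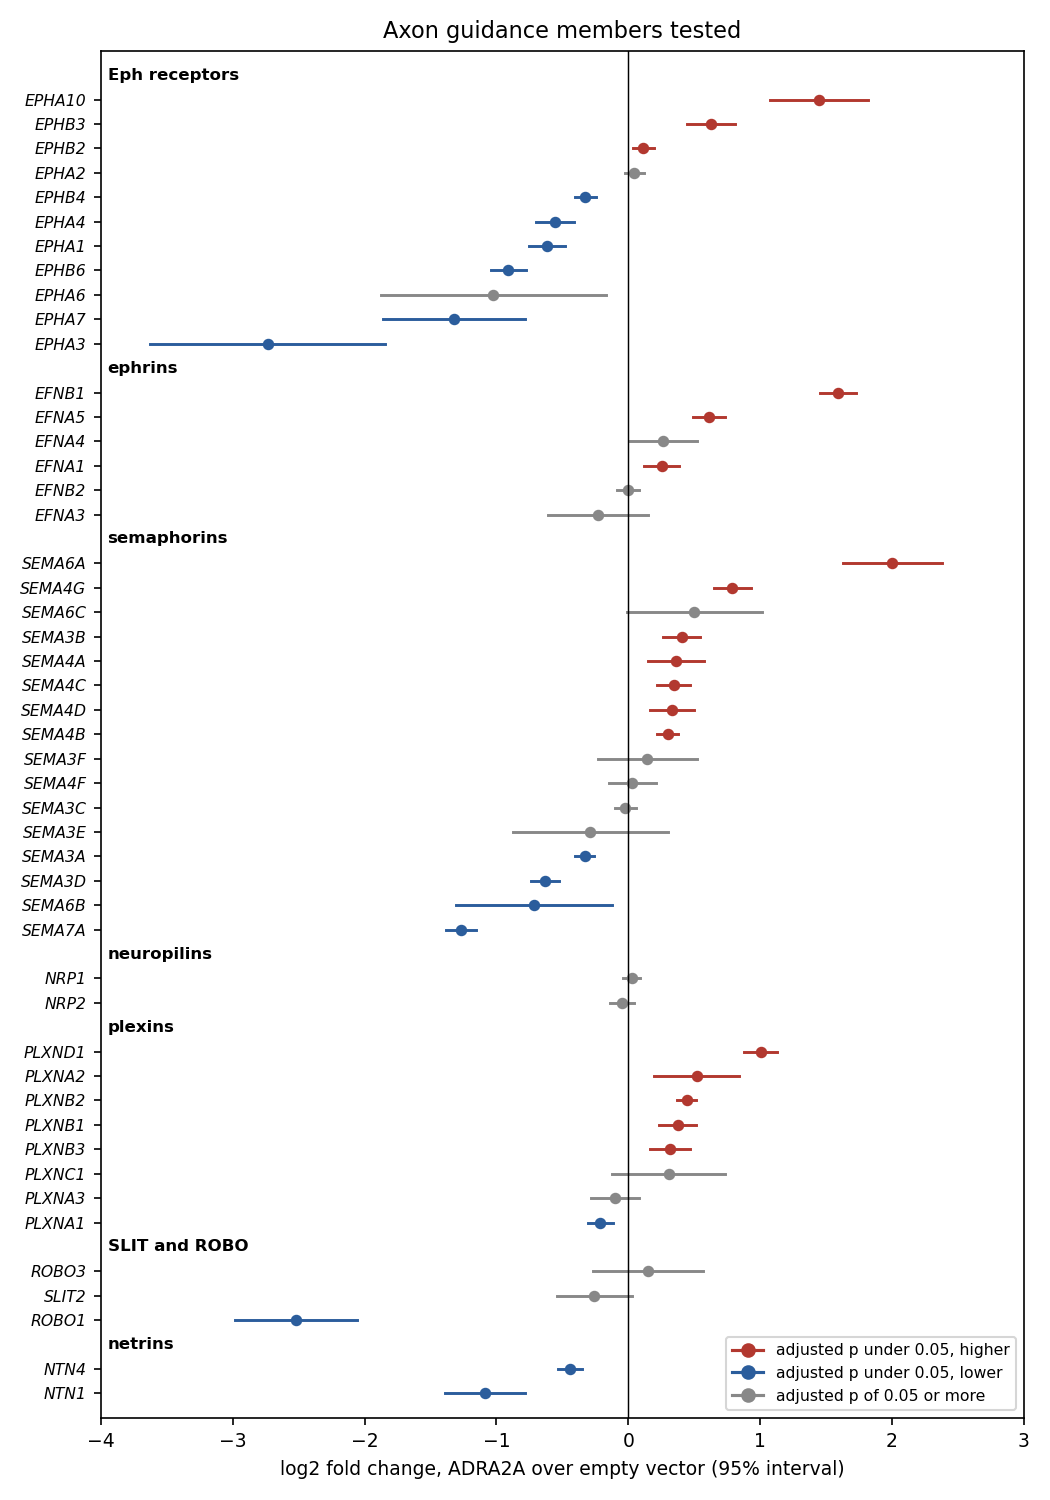
Log2 fold change of ADRA2A over empty-vector cells (x axis) for the 48 guidance genes tested, grouped by family, each point with its 95% interval from edgeR and coloured by its call. Ephrins and plexins lie mostly to the right of 0 and most Eph receptors to the left, with the widest intervals at the genes of lowest count.

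The 16 genes left untested had at most 13 counts in any library. They were EPHA5, EPHA8, EPHB1, EFNA2, EFNB3, SEMA3G, SEMA5A, SEMA5B, SEMA6D, PLXNA4, SLIT1, SLIT3, ROBO2, ROBO4, NTN3 and NTN5. SEMA5A and NTN3 had 0 counts in all 8 libraries. EFNA2, an ephrin-A gene, had 4, 0, 3 and 1 counts in the empty-vector libraries and 10, 9, 8 and 12 in the ADRA2A libraries, groups that did not overlap. SEMA6D, a transmembrane class 6 semaphorin gene, had 8, 12, 11 and 2 counts in the empty-vector and 1, 3, 0 and 0 in the ADRA2A libraries, which overlapped. SLIT1 had 10 counts in empty-vector replicate 3 and 0 in the other 7 libraries.

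Levels of different genes were compared as CPM per kilobase of exon. The set was dominated by few genes, and PLXNB2, EPHA2, NRP1, SEMA4B and SEMA3A together held 50.3% of its summed length-scaled level, averaged over both groups. PLXNB2 stood at 73.0 ± 2.9 in the empty-vector and 99.3 ± 3.1 CPM per kilobase in the ADRA2A cells (n = 4 each, SD). EPHA2 followed with 72.2 ± 2.5 and 74.5 ± 1.4 CPM per kilobase (n = 4 each, SD), and the 2 genes overlapped within the SD in the empty-vector cells. This order depended on the length used. NRP1 has an exon union of 11522 bases and a longest transcript of 5882, against 4141 and 3946 for EPHA2. With the longest transcript as gene length, mean NRP1 ranked above EPHA2 in both groups, and above PLXNB2 in the empty-vector cells. SEMA3C then ranked above SEMA3A averaged over both groups, so the genes named and their share of 50.3% are those for the exon union. Summed over families, the length-scaled level of the ephrins went from 67.6 ± 1.8 to 91.5 ± 2.5 and that of the plexins from 101.8 ± 4.1 to 131.1 ± 4.2 CPM per kilobase (n = 4 each, SD). The Eph receptors went from 129.9 ± 1.4 to 121.0 ± 2.2 and the netrins from 30.5 ± 1.3 to 22.1 ± 0.85 CPM per kilobase (n = 4 each, SD). The neuropilin sums, 53.5 ± 0.91 and 54.0 ± 1.1 CPM per kilobase (n = 4 each, SD), overlapped between the groups. For semaphorins the ADRA2A sum was 0.970 times the empty-vector sum, and 1.01 times with the longest transcript as gene length, so its direction depended on the length used.

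**Figure D2:**
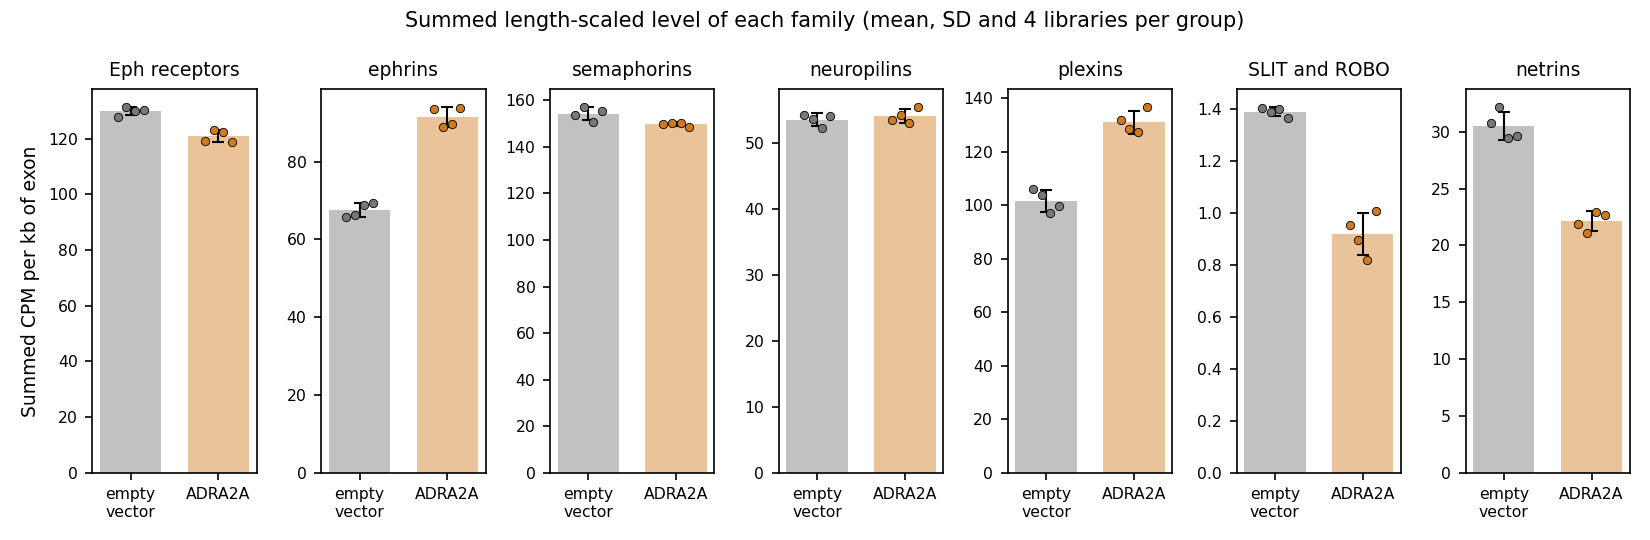
Summed TMM-scaled CPM per kilobase of exon (y axis, each panel with its own scale from 0) for each family, as bars for the mean, error bars for the SD and points for the 4 libraries of each group. The ephrin and plexin libraries of the ADRA2A group all lie above those of the empty vector, the netrin, Eph and SLIT and ROBO libraries below, and the neuropilin libraries overlap.

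**Figure D3:**
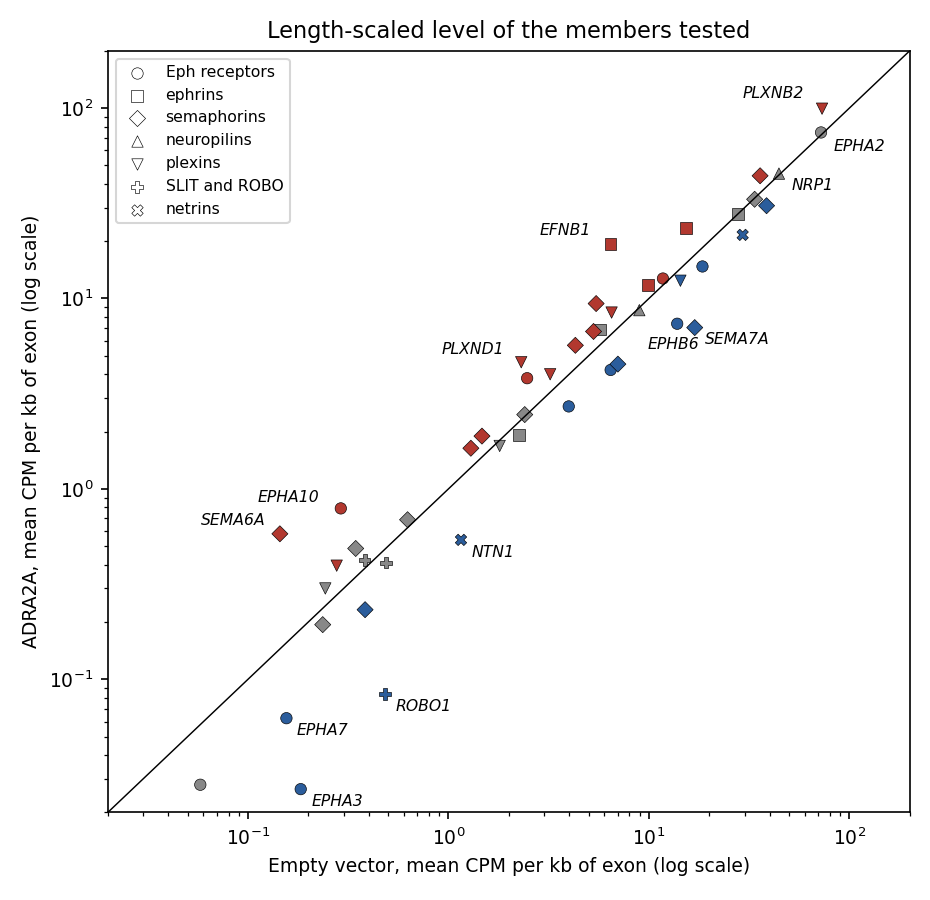
Mean length-scaled level of the 48 genes tested in the empty-vector (x axis) and ADRA2A cells (y axis), both as CPM per kilobase of exon on log scales, with red for higher, blue for lower and grey for not called, and a line of equal level. EPHA2 and NRP1 lie on the line and PLXNB2 above it, and the genes farthest from it, such as SEMA6A, ROBO1 and EPHA3, have low levels.

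Ephrins did not fall in any case that passed the test. Of 8 ephrin genes 6 were tested, and 3 rose (EFNB1, EFNA5 and EFNA1), 0 fell and 3 were not called. The median log2 fold change was 0.26. The share called, 3 of 6, was near the 42.7% of all genes tested, where 21.6% were called higher and 21.1% lower. A test of the ephrins as a family was not made. EFNB1 (ENSG00000090776.6, chromosome X of GRCh38, 68829021 to 68842160, plus strand) encodes ephrin-B1, a transmembrane ligand of EPHB receptors. It stood at 18.2, 22.1, 21.6 and 23.3 CPM in the empty-vector libraries and at 59.6, 64.9, 67.5 and 63.9 CPM in the ADRA2A libraries. Every ADRA2A library was thus far above every control. The rise was 3.01-fold (log2 fold change 1.59 ± 0.07, SE, with an edgeR adjusted p of 3.08e-13), the smallest p-value of all the guidance genes.

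EFNA5 (ENSG00000184349.13, chromosome 5, 107376894 to 107670937, minus strand) encodes ephrin-A5, which is held on the membrane by a lipid anchor. Its libraries had 90.6, 90.9, 87.8 and 82.5 CPM with the empty vector and 146, 124, 122 and 146 CPM with ADRA2A. The groups did not overlap, and the log2 fold change was 0.61 ± 0.06 (SE, with an edgeR adjusted p of 5.15e-08). EFNA1, the gene of ephrin-A1, went from 21.4 ± 0.37 to 25.5 ± 1.0 CPM (n = 4 each, SD), a log2 fold change of 0.25 ± 0.06 (SE, with an edgeR adjusted p of 0.00315). EFNB2 was the most abundant ephrin per length in both groups, at 27.8 ± 1.3 and 27.7 ± 0.85 CPM per kilobase (n = 4 each, SD). Its log2 fold change of 0.00 had a 95% interval of -0.09 to 0.08 (edgeR adjusted p = 0.965). EFNB1 thereby went from 6.45 ± 0.66 to 19.4 ± 1.0 CPM per kilobase (n = 4 each, SD), from below to nearer the level of EFNB2. EFNA4 had a log2 fold change of 0.27 (interval 0.01 to 0.52, edgeR adjusted p = 0.0887) and EFNA3 of -0.23 (interval -0.61 to 0.15, edgeR adjusted p = 0.324). Exons of EFNA3 and EFNA4 are shared with the annotated readthrough gene EFNA4-EFNA3, which was at 0 counts.

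Among the Eph receptors, falls outnumbered rises. Of 14 receptor genes 11 were tested, and 6 fell, 3 rose and 2 were not called, and the median log2 fold change was -0.56. Thus 81.8% were called, beside 42.7% of all genes tested. In the EPHA class 4 of 7 tested genes fell (EPHA1, EPHA3, EPHA4 and EPHA7) and EPHA10 rose. In the EPHB class EPHB4 and EPHB6 fell, and EPHB2 and EPHB3 rose. EPHB6 (ENSG00000106123.12, chromosome 7, 142855061 to 142871094, plus strand) encodes a receptor whose kinase domain is inactive. It had 73.4, 66.1, 77.8 and 77.4 CPM in the empty-vector libraries and 36.7, 44.1, 38.3 and 37.8 CPM in the ADRA2A libraries. All control libraries were higher, and EPHB6 was 1.88-fold lower with ADRA2A (log2 fold change -0.91 ± 0.06, SE, with an edgeR adjusted p of 5.02e-10).

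EPHA10 (ENSG00000183317.17, chromosome 1, 37713880 to 37765133, minus strand) also encodes a receptor without kinase activity and moved the other way. Its empty-vector libraries had 2.34, 1.90, 2.09 and 3.14 CPM and its ADRA2A libraries 5.47, 6.73, 7.56 and 6.01 CPM. The groups were apart, with a log2 fold change of 1.45 ± 0.18 (SE, with an edgeR adjusted p of 1.90e-06). Per length EPHA10 remained scarce, at 0.790 ± 0.11 CPM per kilobase in the ADRA2A cells (SD, n = 4).

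EPHA1 (ENSG00000146904.9, chromosome 7, 143390289 to 143408856, minus strand), an ephrin-A receptor gene, had 29.98, 30.9, 31.4 and 28.8 CPM with the empty vector and 21.1, 18.6, 19.5 and 19.99 CPM with ADRA2A. EPHA4 (ENSG00000116106.12, chromosome 2, 221418027 to 221574202, minus strand), whose product binds ephrins of both classes, had 30.2, 28.03, 29.3 and 32.8 CPM with the empty vector and 21.5, 21.6, 19.4 and 19.4 CPM with ADRA2A. Both genes lay lower in every ADRA2A library. The log2 fold change was -0.61 ± 0.07 for EPHA1 (SE, with an edgeR adjusted p of 2.53e-07) and -0.56 ± 0.07 for EPHA4 (SE, with an edgeR adjusted p of 2.35e-06). EPHB4 (ENSG00000196411.10, chromosome 7, 100802565 to 100827523, minus strand), the main receptor of ephrin-B2, went from 119.1 ± 1.2 to 94.8 ± 2.5 CPM (n = 4 each, SD), a log2 fold change of -0.33 ± 0.04 (SE, with an edgeR adjusted p of 8.93e-07).

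EPHA2, a receptor of ephrin-A1 that is often abundant in carcinoma cells, was the most abundant Eph gene per length. It had 290, 313, 293 and 299.6 CPM in the empty-vector libraries and 303, 314, 313 and 304 CPM in the ADRA2A libraries. The groups overlapped, and the log2 fold change of 0.04 had a 95% interval of -0.03 to 0.12 (edgeR adjusted p = 0.310). EPHB2 rose by a log2 fold change of 0.12 ± 0.04 (SE, with an edgeR adjusted p of 0.0148), a call that was lost without empty-vector replicate 4 (adjusted p = 0.0512). EPHB3 rose from 11.2 ± 0.87 to 17.3 ± 0.99 CPM (n = 4 each, SD), a log2 fold change of 0.63 ± 0.09 (SE, with an edgeR adjusted p of 7.59e-06).

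EPHA3 and EPHA7 were outside the rule for full statistics and were singled out after their values were seen, because EPHA3 had the lowest log2 fold change of the set. EPHA3 (ENSG00000044524.11, chromosome 3, 89107621 to 89482134, plus strand) had 22, 13, 22 and 21 counts in the empty-vector libraries and 1, 5, 3 and 2 counts in the ADRA2A libraries. Its log2 fold change of -2.74 ± 0.43 (SE, with an edgeR adjusted p of 3.07e-05) rests on these few counts, and its 95% interval ran from -3.63 to -1.85. EPHA7 went from 2.56 ± 0.34 to 1.03 ± 0.29 CPM (n = 4 each, SD), a log2 fold change of -1.32 ± 0.26 (SE, with an edgeR adjusted p of 0.000344). EPHA6 had a log2 fold change of -1.02, with overlapping libraries (edgeR adjusted p = 0.0506, and 0.00916 to 0.153 over the alternatives).

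Set side by side, the ligands and receptors of ephrin signalling did not move alike. Ephrin-B1 is a ligand of EPHB receptors. The EPHB genes tested, EPHB2, EPHB3, EPHB4 and EPHB6, had log2 fold changes of 0.12, 0.63, -0.33 and -0.91. EFNB1 itself had 1.59. For the ephrin-A ligands that rose, EFNA1 and EFNA5, the EPHA receptor genes moved both ways: EPHA1, EPHA3, EPHA4 and EPHA7 fell, EPHA10 rose, and EPHA2 and EPHA6 were not called. Summed per length, the EPHA receptors stood at 83.3 ± 2.4 and 82.3 ± 1.3 and the EPHB receptors at 46.6 ± 1.3 and 38.7 ± 0.91 CPM per kilobase in the empty-vector and ADRA2A cells (n = 4 each, SD). EPHA2 alone accounts for the larger part of the EPHA sum.

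**Figure D4:**
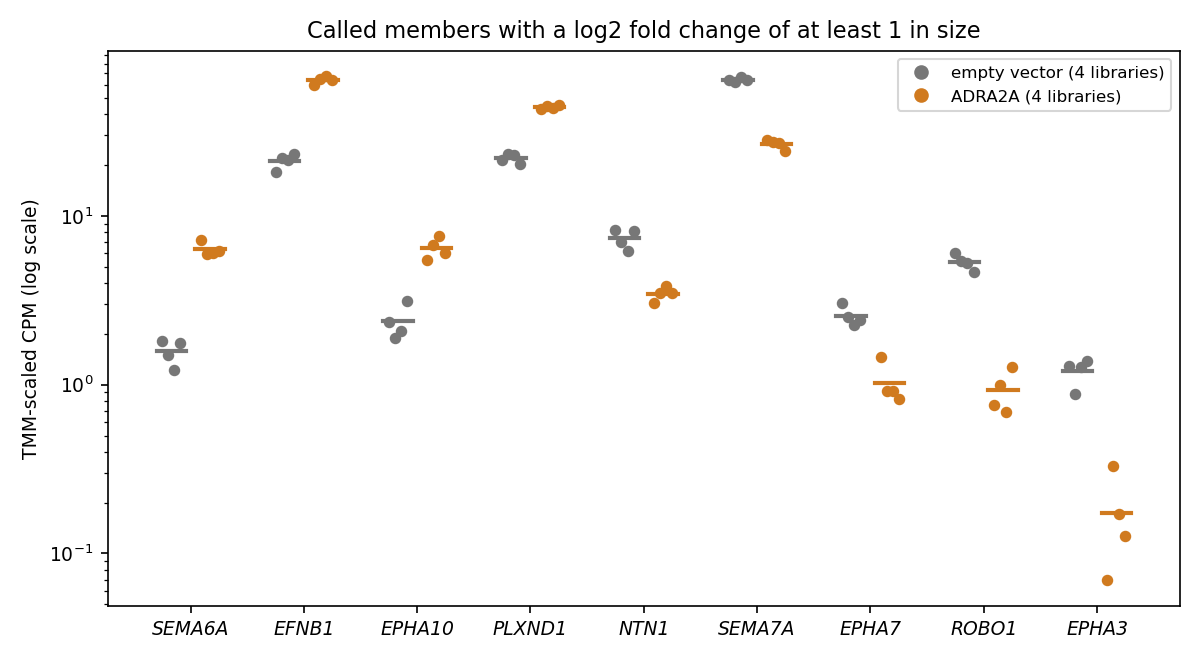
TMM-scaled CPM (y axis, log scale) in each library for the 9 called guidance genes with a log2 fold change of at least 1 in either direction, grey for empty vector and orange for ADRA2A, with a bar at the mean of 4. The 2 colours do not overlap for any of the 9 genes, and the spread is widest for EPHA3 in the ADRA2A libraries.

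Semaphorins moved in both directions. Of 20 genes 16 were tested, and 7 rose, 4 fell and 5 were not called. Thus 68.8% were called, beside 42.7% of all genes tested. In class 4, whose members are transmembrane proteins, 5 of 6 genes rose (SEMA4A, SEMA4B, SEMA4C, SEMA4D and SEMA4G), 0 fell and SEMA4F was not called. Among all genes tested 21.6% were called higher. The median log2 fold change of class 4 was 0.34. In class 3, the secreted semaphorins, SEMA3A and SEMA3D fell, SEMA3B rose, and SEMA3C, SEMA3E and SEMA3F were not called. Summed per length, class 4 went from 51.8 ± 2.3 to 66.2 ± 1.7 and class 3 from 84.6 ± 2.1 to 75.1 ± 1.5 CPM per kilobase (n = 4 each, SD). A test of the difference between the classes was not made.

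SEMA7A (ENSG00000138623.10, chromosome 15, 74409289 to 74433958, minus strand) encodes a semaphorin anchored to the membrane by a lipid, which binds integrin beta-1 and plexin C1. Its libraries had 64.0, 62.6, 66.6 and 64.1 CPM with the empty vector and 28.1, 27.4, 27.1 and 24.3 CPM with ADRA2A. Replicates were close and the groups far apart. SEMA7A was 2.41-fold lower (log2 fold change -1.27 ± 0.05, SE, with an edgeR adjusted p of 4.32e-13). Its receptor gene PLXNC1 was scarce, at 2.44 ± 0.48 and 3.01 ± 0.31 CPM (n = 4 each, SD), and was not called (edgeR adjusted p = 0.241).

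SEMA6A (ENSG00000092421.16, chromosome 5, 116443555 to 116574823, minus strand) encodes a transmembrane ligand of plexins A2 and A4. It had 1.82, 1.49, 1.22 and 1.77 CPM in the empty-vector libraries and 7.20, 5.94, 6.01 and 6.198 CPM in the ADRA2A libraries. This was the highest fold change of the set, 4.01-fold (log2 fold change 2.004 ± 0.18, SE, with an edgeR adjusted p of 2.62e-08), from 21 to 31 counts per empty-vector library. The other class 6 genes tested were SEMA6B, with a log2 fold change of -0.72, and SEMA6C, with 0.50. SEMA6C was not called (edgeR adjusted p = 0.109). SEMA6B passed narrowly (edgeR adjusted p = 0.0481), its libraries overlapped, and it lost the call under 10 of 15 alternatives, with adjusted p-values from 0.0241 to 0.169.

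SEMA4G (ENSG00000095539.15, chromosome 10, 100969504 to 100985871, plus strand) had 26.1, 32.1, 29.7 and 27.6 CPM with the empty vector and 50.6, 45.2, 50.05 and 53.5 CPM with ADRA2A. It rose most in class 4, by a log2 fold change of 0.79 ± 0.07 (SE, with an edgeR adjusted p of 1.06e-08). Of the exon length of SEMA4G, 22.9% overlaps exons of MRPL43 on the opposite strand. MRPL43 went from 58.5 to 49.3 CPM (log2 fold change -0.25), the direction opposite to SEMA4G, and the use of strand in counting was not given in the sources used here. SEMA4B (ENSG00000185033.14, chromosome 15, 90160604 to 90229679, plus strand) was the most abundant semaphorin per length averaged over both groups, though not in the empty-vector cells alone. It rose from 250.8 ± 10.0 to 308 ± 12.3 CPM (n = 4 each, SD), a log2 fold change of 0.30 ± 0.04 (SE, with an edgeR adjusted p of 2.72e-06). SEMA4A, SEMA4C and SEMA4D, the last a ligand of plexin B1, had log2 fold changes of 0.36, 0.35 and 0.33, with edgeR adjusted p-values of 0.00713, 0.000103 and 0.00211.

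SEMA3A (ENSG00000075213.11, chromosome 7, 83955777 to 84492724, minus strand) encodes the secreted ligand that repels axons through neuropilin 1. Its libraries had 360, 360, 344 and 366 CPM with the empty vector and 284, 291, 274 and 288 CPM with ADRA2A. Each ADRA2A library was lower, by a log2 fold change of -0.33 ± 0.03 (SE, with an edgeR adjusted p of 1.44e-07). SEMA3D (ENSG00000153993.13, chromosome 7, 84995553 to 85187056, minus strand), a related secreted ligand, went from 57.8 ± 1.6 to 37.4 ± 1.3 CPM (n = 4 each, SD), a log2 fold change of -0.63 ± 0.05 (SE, with an edgeR adjusted p of 3.05e-09). SEMA3C and SEMA3E lie on the same arm of chromosome 7 beside these genes. SEMA3C stood at 205 ± 6.7 and 202 ± 8.6 CPM (n = 4 each, SD), with a 95% interval of its log2 fold change of -0.10 to 0.06. SEMA3E, at 1.99 and 1.64 CPM, had an interval of -0.88 to 0.30, too wide at its counts of 18 to 39 per library to show a change of the size of SEMA3D. SEMA3B rose by a log2 fold change of 0.40 ± 0.07 (SE, with an edgeR adjusted p of 7.33e-05).

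Plexins mostly rose. Of 9 genes 8 were tested, and 5 rose, 1 fell and 2 were not called, and the median log2 fold change was 0.34. All 3 PLXNB genes were among those that rose. Of all genes tested 42.7% were called, 21.6% higher and 21.1% lower. A test of the plexins as a family was not made. PLXND1 (ENSG00000004399.12, chromosome 3, 129555214 to 129606676, minus strand) encodes plexin D1, the receptor of SEMA3E, known from blood vessel patterning. It had 21.5, 23.4, 22.9 and 20.4 CPM in the empty-vector libraries and 43.0, 45.1, 43.5 and 45.3 CPM in the ADRA2A libraries. The groups did not overlap (log2 fold change 1.00 ± 0.06, SE, with an edgeR adjusted p of 5.26e-11).

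PLXNB2 (ENSG00000196576.15, chromosome 22, 50274979 to 50307646, minus strand), the most abundant gene of the whole set per length in the ADRA2A cells, had 552, 544, 506 and 522 CPM with the empty vector and 724, 711, 699 and 752 CPM with ADRA2A. The groups were well apart, with a log2 fold change of 0.44 ± 0.03 (SE, with an edgeR adjusted p of 3.08e-09). PLXNB1 (ENSG00000164050.13, chromosome 3, 48403854 to 48430086, minus strand) had 71.4, 66.4, 52.1 and 64.7 CPM with the empty vector, a wide spread, and 81.9, 80.2, 81.1 and 86.5 CPM with ADRA2A. Its log2 fold change was 0.37 ± 0.07 (SE, with an edgeR adjusted p of 0.000166). PLXNB3 rose from 22.5 ± 2.3 to 28.02 ± 0.85 CPM (n = 4 each, SD), a log2 fold change of 0.31 ± 0.07 (SE, with an edgeR adjusted p of 0.00157). Of its exon length, 20.4% is shared with SRPK3 on the same strand, which had at most 0.465 CPM on average in a group.

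The class A plexins, which pair with neuropilins to receive class 3 semaphorins, did not move together. PLXNA1 (ENSG00000114554.11, chromosome 3, 126982693 to 127037389, plus strand) fell from 161 ± 5.9 to 139 ± 9.3 CPM (n = 4 each, SD), a log2 fold change of -0.21 ± 0.05 (SE, with an edgeR adjusted p of 0.000819). PLXNA2 rose from 3.84 ± 0.57 to 5.47 ± 0.58 CPM (n = 4 each, SD; edgeR adjusted p = 0.0106), and PLXNA3 had a log2 fold change of -0.10 and was not called (edgeR adjusted p = 0.375). Neither neuropilin gene was called. NRP1 (ENSG00000099250.18, chromosome 10, 33177492 to 33336262, minus strand), a coreceptor for class 3 semaphorins and for VEGF, had 521, 515, 502 and 515 CPM with the empty vector and 519.6, 522, 514 and 532 CPM with ADRA2A. These overlapping values give a log2 fold change of 0.02 with a 95% interval of -0.04 to 0.09 (edgeR adjusted p = 0.539). For NRP2 the interval was -0.14 to 0.05 (edgeR adjusted p = 0.440). Along the SEMA3A route, then, the ligand and PLXNA1 were lower, PLXNA2 was higher and PLXNA3 was not called. The log2 fold change of NRP1 lay within 0.09 of 0.

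In the SLIT and ROBO family 3 of 7 genes were tested, and ROBO1 alone was called (33.3%, beside 42.7% of all genes tested). ROBO1 (ENSG00000169855.20, chromosome 3, 78597239 to 79767998, minus strand) encodes a SLIT receptor. It had 6.03, 5.43, 5.23 and 4.65 CPM in the empty-vector libraries, from 71 to 103 counts, and 0.761, 0.990, 0.687 and 1.26 CPM in the ADRA2A libraries, from 11 to 20 counts. The groups were far apart. ROBO1 was 5.74-fold lower (log2 fold change -2.52 ± 0.22, SE, with an edgeR adjusted p of 1.86e-08), and over the 15 alternatives the value lay between -2.71 and -2.39. The ligand SLIT2 was the most abundant member of this family per kilobase of exon, averaged over both groups. It had 5.27, 5.16, 5.75 and 5.43 CPM with the empty vector and 4.43, 4.95, 4.01 and 4.74 CPM with ADRA2A. The libraries did not overlap, yet the test did not call SLIT2 (log2 fold change -0.26, 95% interval -0.54 to 0.03, edgeR adjusted p = 0.144). ROBO3 stood at 2.67 ± 0.43 and 2.95 ± 0.40 CPM (n = 4 each, SD) and was not called (edgeR adjusted p = 0.579). The family summed to 1.39 ± 0.018 and 0.919 ± 0.081 CPM per kilobase (n = 4 each, SD), far below each of the other families.

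Both netrins tested fell, where 21.1% of all genes tested were called lower. NTN1 (ENSG00000065320.9, chromosome 17, 9021510 to 9244000, plus strand) encodes netrin-1, a secreted guidance and survival factor. It had 8.26, 6.99, 6.22 and 8.18 CPM in the empty-vector libraries and 3.04, 3.50, 3.84 and 3.48 CPM in the ADRA2A libraries. Each ADRA2A library was below each control, and NTN1 was 2.13-fold lower (log2 fold change -1.09 ± 0.15, SE, with an edgeR adjusted p of 4.89e-06). NTN4 (ENSG00000074527.12, chromosome 12, 95657807 to 95791189, minus strand), whose product binds laminin in basement membranes, was the more abundant netrin. It had 129, 136, 124 and 124 CPM with the empty vector and 93.4, 89.6, 97.4 and 96.5 CPM with ADRA2A, again without overlap. The log2 fold change was -0.44 ± 0.04 (SE, with an edgeR adjusted p of 7.12e-08).

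Other genes of the same pathways were taken from a list of 69 receptors, coreceptors, further ligands and intracellular effectors. Of these 56 were tested, and 20 rose, 20 fell and 16 were not called, and the median log2 fold change was -0.04. The share called was 71.4%, beside 42.7% of all genes tested. Among receptors of netrins, DCC had 0 counts in all libraries. UNC5A rose from 3.82 ± 0.23 to 8.56 ± 0.70 CPM (n = 4 each, SD), a log2 fold change of 1.16 (edgeR adjusted p = 3.73e-07), and UNC5B by 0.94 (edgeR adjusted p = 0.000991). UNC5C fell from 3.13 ± 1.0 to 1.20 ± 0.42 CPM (n = 4 each, SD), a log2 fold change of -1.40 (edgeR adjusted p = 0.000563). The more abundant receptor NEO1, neogenin, rose from 38.6 ± 2.0 to 61.6 ± 6.4 CPM (n = 4 each, SD), a log2 fold change of 0.68 (edgeR adjusted p = 6.64e-08). NTNG1, the gene of netrin-G1, and FLRT2, the gene of an UNC5 ligand, fell, with log2 fold changes of -1.82 and -1.61 (edgeR adjusted p = 5.18e-08 and 1.81e-05).

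Receptor kinases that associate with B plexins were both called. ERBB2 was higher by 0.50 on the log2 scale and MET by 0.10 (edgeR adjusted p = 1.96e-10 and 0.00794). ADAM10, a protease that cleaves ephrins, rose by 0.22 on the log2 scale (edgeR adjusted p = 2.49e-05). Effectors that act on actin or its regulators moved both ways. ABLIM1, an actin-binding protein gene, and EVL, of the Ena/VASP family, rose by 0.50 and 0.36 on the log2 scale (edgeR adjusted p = 1.32e-07 and 0.000170), and ENAH of the same family fell, with a value of -0.29 (edgeR adjusted p = 7.98e-06). The kinase gene PAK1, the GTPase gene CDC42 and the exchange factor gene VAV3 rose by 0.20, 0.13 and 1.59 (edgeR adjusted p-values of 0.00132, 0.00233 and 5.12e-05). The kinase gene LIMK1 and its substrate gene CFL1, cofilin, fell, with log2 fold changes of -0.31 and -0.26 (edgeR adjusted p = 1.86e-06 and 9.91e-07). LIMK2, MICAL1 and ROCK2 were not called. MICAL2, an actin-oxidising enzyme of the family downstream of plexins, had -0.52 and the Src-family kinase gene FYN -0.85 (edgeR adjusted p = 1.18e-06 and 2.11e-05). Of the SLIT-ROBO GTPase-activating proteins, SRGAP1 rose by 0.46 while SRGAP2 had -0.25 (edgeR adjusted p = 5.56e-06 and 0.000145).

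Each gene was also compared with its neighbours on the chromosome. For each guidance gene the median log2 fold change of the 20 nearest tested genes, 10 on each side, was taken, with other guidance genes left out. Over the 32 called genes this median lay between -0.16, around EPHA7, and 0.28, around PLXND1. A median over 20 genes varies less than a single gene, so the sizes of the 2 are not compared. For EPHB2 the neighbours' median was 0.13 and its own log2 fold change 0.12. Around PLXND1 12 of the 20 neighbours were called higher and 0 lower, and its own log2 fold change was 1.00. Among all genes tested 21.6% were called higher and 21.1% lower. PLXND1 was not alone in this, with 10 higher and 0 lower around EPHB2 and around EPHB3. Around EPHA2, not called itself, 9 were higher and 0 lower. The other way, 3 were higher and 10 lower around SLIT2, also not called. Around EFNB1 the neighbours' median was 0.02, around SEMA6A -0.06, around SEMA7A 0.10 and around ROBO1 -0.07. ROBO1 and EPHA3 lie on chromosome 3 and had the 2 lowest log2 fold changes, with neighbours at -0.07 and -0.05.

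**Figure D5:**
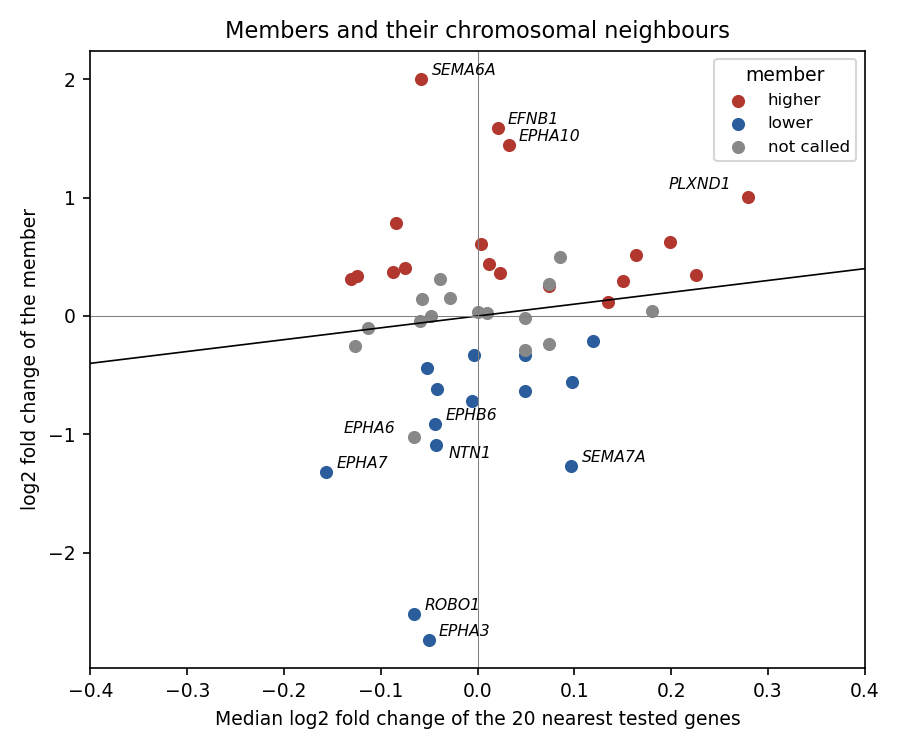
Log2 fold change of each guidance gene tested (y axis) against the median log2 fold change of the 20 nearest tested genes (x axis), coloured by call, with a line where the 2 are equal. The neighbours' medians run from -0.16 at EPHA7 to 0.28 at PLXND1.

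Promoter sequence was read for the genes with a RefSeq entry, as the 250 bases before the first listed transcription start on GRCh38.p14, and 42 of the 48 genes tested had one. EPHA10, NRP1, NTN1, SEMA3A, SEMA6A and SEMA6B had none. Each was searched on both strands for TGACGTCA, the palindromic cAMP response element, chosen because ADRA2A signals through Gi, and for TGANTCA (AP-1), GGAATG (the TEAD core) and CACCTG (an E-box). None of these motifs contains another. The cAMP response element was found in 1 of 16 promoters of genes that rose (SEMA4C), 0 of 11 of genes that fell and 1 of 15 of genes not called (EPHA2), beside 1.77% of 27305 promoters in the table. AP-1 letters were found in 0 of 16, 0 of 11 and 1 of 15, beside 6.60% of all, the TEAD core in 2, 0 and 1, beside 11.9%, and the E-box in 3, 1 and 4, beside 17.5%. A match says only that these letters stand in the window.

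The promoters printed next are those of the 2 guidance genes with an entry that rose most (EFNB1 and PLXND1), the 2 that fell most (ROBO1 and SEMA7A) and the 2 that hold the cAMP response element (EPHA2 and SEMA4C), chosen after the values were seen. They are written 5′ to 3′ on the strand of the gene, each ending at the base before the start, with capitals for a motif match. EFNB1 is at chrX:68828771-68829020 (plus strand), PLXND1 at chr3:129606677-129606926, ROBO1 at chr3:79767999-79768248, SEMA7A at chr15:74433959-74434208, EPHA2 at chr1:16156070-16156319 and SEMA4C at chr2:96870081-96870330 (all minus strand).
EFNB1: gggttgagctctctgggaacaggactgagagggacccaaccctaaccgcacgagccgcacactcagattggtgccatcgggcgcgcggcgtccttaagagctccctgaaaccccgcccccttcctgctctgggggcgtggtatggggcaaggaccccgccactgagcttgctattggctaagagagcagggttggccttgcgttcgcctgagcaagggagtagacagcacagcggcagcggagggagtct
PLXND1: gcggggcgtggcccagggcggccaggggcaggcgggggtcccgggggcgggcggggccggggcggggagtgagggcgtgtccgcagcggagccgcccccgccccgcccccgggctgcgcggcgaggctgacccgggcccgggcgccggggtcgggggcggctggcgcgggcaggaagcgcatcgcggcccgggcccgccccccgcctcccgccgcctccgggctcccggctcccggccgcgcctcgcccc
ROBO1: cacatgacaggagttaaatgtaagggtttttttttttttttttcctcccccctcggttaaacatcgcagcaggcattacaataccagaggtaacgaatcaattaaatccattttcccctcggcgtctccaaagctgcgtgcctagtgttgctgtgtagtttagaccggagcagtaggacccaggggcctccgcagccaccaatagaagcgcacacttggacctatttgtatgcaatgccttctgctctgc
SEMA7A: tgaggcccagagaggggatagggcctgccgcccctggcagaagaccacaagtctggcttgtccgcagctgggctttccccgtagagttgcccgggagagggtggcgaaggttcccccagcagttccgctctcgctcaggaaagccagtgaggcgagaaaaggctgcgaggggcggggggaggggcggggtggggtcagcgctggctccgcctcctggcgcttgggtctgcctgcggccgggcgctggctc
EPHA2: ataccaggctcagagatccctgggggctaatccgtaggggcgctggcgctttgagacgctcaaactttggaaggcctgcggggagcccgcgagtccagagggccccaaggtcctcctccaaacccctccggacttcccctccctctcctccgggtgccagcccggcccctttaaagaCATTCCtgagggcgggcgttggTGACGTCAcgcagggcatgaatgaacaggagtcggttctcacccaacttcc
SEMA4C: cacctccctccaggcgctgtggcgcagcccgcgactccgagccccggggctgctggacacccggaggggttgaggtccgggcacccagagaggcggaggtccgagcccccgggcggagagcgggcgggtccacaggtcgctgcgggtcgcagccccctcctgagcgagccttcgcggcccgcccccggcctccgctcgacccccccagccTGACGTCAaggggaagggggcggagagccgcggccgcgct
None of the 4 motifs is in the EFNB1, PLXND1, ROBO1 or SEMA7A window. In EPHA2 the cAMP response element begins 51 bases before the start and the TEAD core, on the opposite strand as CATTCC, 73 bases before it, and in SEMA4C the cAMP response element begins 40 bases before the start. EPHA2 was not called while SEMA4C rose, so these 2 genes that share the element differed in call, and a test of that difference was not made. The windows also differ in base composition, from 48.0% G and C in ROBO1 to 88.8% in PLXND1, around a median of 67.8% for the 42 guidance promoters and 58.0% for all promoters.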

How the data were processed

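RNA of 8 CFPAC-1 samples was sequenced, 4 per group, with groups and replicate numbers from the labels. The authors deposited RSEM estimated counts per gene, not scaled between samples, of which 4.61% to 4.90% per library had decimals. Cutadapt, STAR, RSEM, DESeq2 and the build hg38 are named in the submitters' processing notes, without versions. The annotation release and the use of strand were not given in the sources used here. All 8 columns matched a sample title (0 were unassigned).

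Counts were rounded and filtered with edgeR's filterByExpr defaults, leaving 14785 of 58870 genes, with 99.9% of each library's counts. TMM factors lay between 0.994 and 1.01. The test was edgeR 4.0.16 (R 4.3.3) glmQLFit and glmQLFTest with the group as single term, with Benjamini-Hochberg adjustment over all genes tested and a threshold of 0.05. Standard errors are the absolute log2 fold change over the square root of F, and 95% intervals use the t distribution with the fit's degrees of freedom. CPM are TMM-scaled. Length scaling divided CPM by the union of exons in GENCODE 44 (GRCh38, the same assembly as hg38), which held all 64 genes. The floor for a count of 0 was 3 counts per library, for counting error only. The script was tested on simulated data with known changes. Replicates differed by more than sampling noise, with chi-square per gene from 2.15 to 4.56, so none was merged.

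Named with full statistics were, per family, up to 5 genes with the smallest p among those with adjusted p under 0.05 and no overlap between groups, plus the most abundant gene per length. All further genes were picked with their values known. The genes, the lists and the rule were chosen with earlier results of these data known. Alternatives were DESeq2 1.42.0, RLE and upper quartile factors, limma 3.58.1 voom, no filter, a minimum mean of 50 counts, each library left out, a block for the replicate number, the longest transcript as length and 20 neighbours on each side.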

Additional observations from a re-analysis of the deposited data

Results flagged for a closer look

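The 4 libraries of each group were examined for the 48 genes tested, 96 groups in all, for a library far from the other 3 relative to the group's range. This picked out 3 groups, and chance picks out about 1 in 20. EPHA7 stood at 1.45 CPM in ADRA2A replicate 1, against 0.822 to 0.924 CPM in the other ADRA2A libraries, and this highest value was still below all empty-vector libraries. SEMA4A stood at 8.18 CPM in empty-vector replicate 4, against 10.5 to 10.6 CPM in the other 3, farther from the ADRA2A libraries than they were. SEMA6C stood at 2.15 CPM in ADRA2A replicate 1, against 2.97 to 3.09 CPM in the other 3, and was not called.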

How the results depend on the processing

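The number of guidance genes called, 32, was 31 with DESeq2, 32 with RLE factors, 33 with upper quartile factors, 32 with limma voom, 35 with no filter, 29 of 40 at a mean of at least 50 counts, and 30 to 32 with 1 library left out. At a mean of at least 50 counts, 5835 of all 12325 genes tested were called. None of the guidance gene calls shared with the 32 changed sign. Of the 32 calls 30 held under every alternative that tested the gene, and the exceptions were EPHB2 and SEMA6B. With no filter EFNA2, SEMA6D, SLIT1 and SLIT3 were also called, with adjusted p-values of 0.00392, 0.00240, 0.0238 and 0.0322, SLIT1 on the counts of 1 library. The median log2 fold change of the genes tested was 0.0782 at a mean of at least 50 counts, where fewer genes were tested. The semaphorin sum relative to the empty vector was 1.01 with the longest transcript as length. For the 26 genes with full statistics, 386 of 390 alternative values kept their direction and call. The other 4 were those of EFNB2, not called in any, whose log2 fold change changed sign without 1 library (-0.0291 to 0.0251 over these fits). All genes called numbered 5703 to 6550 over the alternatives, against 6314. With 20 neighbours on each side the neighbours' median changed sign for EPHB6, EFNA5, EFNB1, EFNB2 and NTN4 among the genes with full statistics, and for NRP2, PLXNC1, SEMA3B, SEMA3F and SEMA4A among the others tested.

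Same-numbered samples did not visibly deviate together (correlations of -0.04 to 0.07, and -0.07 to 0.11 between unlike numbers). This gave no sign of pairing by number but cannot exclude that same-numbered samples were handled together. With the replicate number as a block 32 guidance genes were called, 31 of them shared, and 6400 genes in all. Depth limits the genes of few counts: the 16 untested ones, and EPHA3, EPHA6, SEMA3E and SEMA6B.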
